A study of Rattus norvegicus with 8 samples.

Results

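The nuclear-encoded subunits of the mitochondrial respiratory chain were followed across 8 Agilent single-colour expression arrays of male rat lung. The genes were chosen by symbol: every probe whose transcript accession belongs to a rat gene named as a subunit of complex I (Nduf genes), complex II (Sdha to Sdhd), complex III (Uqcr genes), complex IV (Cox4 to Cox8) or complex V (Atp5f, Atp5m and Atp5p genes). The name rule itself uses no measured value, but the genes were chosen with earlier results of these data known. The rule named 205 genes of the gene table, 108 of them protein coding. Of these, 79 symbols had a probe, 105 probes in all. A probe was kept if, in 1 or more of the groups, the scanner software marked its signal as well above background on each array; 103 probes passed, for 78 genes among the 25097 genes and unnamed probes tested. Those 78 were 32 genes of complex I, 4 of complex II, 8 of complex III, 18 of complex IV and 16 of complex V. Cox6c-ps1, a transcribed pseudogene, is among them, and Ndufa4 and its relative Ndufa4l2 were counted with complex IV, in which the NDUFA4 protein is now placed. Cox8c, a testis isoform, was not well above background on any array and was not tested. Among genes with no probe were Ndufs6, Ndufa3, Ndufa8, Ndufb1, Ndufc1, Cox7a1 and Cox7b2.

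The 4 groups held 2 arrays each. Naive rats breathed normal air. The smoke group was exposed to cigarette smoke for 12 weeks. The EV group had the same exposure and then received, into the trachea at week 13, extracellular vesicles of human umbilical cord mesenchymal stem cells (the yield of 2500000 cells). The MSC group had the same exposure and received about as many of the cells themselves by the same route. Total RNA came from 30 mg of lung tissue, and 200 ng of it was labelled with Cy3. Strain, age and the time of sampling are not given in the sources used here. Separate animals are not named for the arrays of a group, so the spread behind each p-value is that of these arrays and may be technical. In lung tissue, fewer cells of a type and less RNA per cell cannot be told apart.

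As background, the respiratory chain sits in the inner mitochondrial membrane. Complexes I and II take electrons from NADH and succinate, complex III passes them to cytochrome c, and complex IV hands them to oxygen. The proton gradient this builds drives complex V, the ATP synthase. Most subunits are encoded in the nucleus and a small set, not measured here, in mitochondrial DNA. Several subunits come in isoforms tied to a tissue or to oxygen supply, such as the heart and skeletal muscle isoforms of COX6A and COX8 and the oxygen-responsive COX4-2 and NDUFA4L2. In lung, alveolar type 2 cells, ciliated cells and macrophages are among the cells known for many mitochondria.

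A level here is the log2 scanner signal of a probe minus the array's 75th percentile, so it is relative to the other probes of that array. Probes bind with different strength, so a brighter probe does not show more RNA; brightness orders probes in 1 description below. The 75th percentile was 6.49 times as high in the smoke group as in the naive group, 1.34 times in the EV group and 0.553 times in the MSC group, while the E1A spike-in controls, foreign RNAs added with the labelling kit, stood at 0.832, 0.959 and 1.15 times their naive signal. Each array had 48.1% to 71.3% of probes above background, and no spot was saturated. All arrays lay on 1 slide, each group filling a column of it, and the effects of column and group cannot be told apart. Lung markers were present on every array: the summed level of 6 measured of 7 alveolar type 2 markers was 8.66 and 8.71 in smoke and 9.59 to 10.55 elsewhere, on the log2 scale. Their median level was 5.77 and 5.70 in smoke and 4.75 to 6.21 elsewhere. The summed level of 5 ciliated cell markers was 5.16 and 5.33 in smoke and 6.17 to 6.53 elsewhere. Their median level was 0.12 and 0.46 in smoke and 1.63 to 2.85 elsewhere. For 8 macrophage markers the summed level was 6.14 and 6.27 in smoke against 6.87 to 8.23. Their median level, at -2.57 and -3.78 in smoke, lay within the -4.45 to -2.53 found elsewhere. By the test used below, 3 of the 8 rose and 1 fell in smoke against naive lung (50% called, against 47.5% of all features). The part of these cells in the results was not tested. On every array 76 to 78 of the 78 genes were well above background. Their median signal lay between the 89.7th and 94.4th percentile of the 25097 genes and unnamed probes tested.

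Promoter windows were available for 68 of the 78 genes (RefSeq, build GRCr8, 250 bases before to 50 bases from the annotated start on). 5 are shown because the results below turn on these genes: Ndufa4l2, Ndufs8 and Atp5f1c stood high in smoke, Atp5me stood low on the same scale, and Cox6a2 is the muscle isoform that was bright on 2 arrays. Capitals mark matches, on either strand, to motifs known from promoters of respiratory genes: GCGCATGC of NRF1, AAGATGGC of YY1, CCGGAAG of ETS factors such as GABP, and CAAGGTCA of the oestrogen-related receptors. The windows lie at chr7:65241919-65242218 (plus strand) for Ndufa4l2, chr1:210573649-210573948 (minus strand) for Ndufs8, chr17:73333435-73333734 (plus strand) for Atp5f1c, chr14:1464610-1464909 (plus strand) for Atp5me and chr1:192219667-192219966 (minus strand) for Cox6a2.
Ndufa4l2: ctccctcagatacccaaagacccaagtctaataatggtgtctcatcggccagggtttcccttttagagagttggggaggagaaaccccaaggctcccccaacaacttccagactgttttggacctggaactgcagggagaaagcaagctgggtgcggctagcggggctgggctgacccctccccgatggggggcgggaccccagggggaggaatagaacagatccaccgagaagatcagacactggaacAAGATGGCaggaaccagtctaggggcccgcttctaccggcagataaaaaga
Ndufs8: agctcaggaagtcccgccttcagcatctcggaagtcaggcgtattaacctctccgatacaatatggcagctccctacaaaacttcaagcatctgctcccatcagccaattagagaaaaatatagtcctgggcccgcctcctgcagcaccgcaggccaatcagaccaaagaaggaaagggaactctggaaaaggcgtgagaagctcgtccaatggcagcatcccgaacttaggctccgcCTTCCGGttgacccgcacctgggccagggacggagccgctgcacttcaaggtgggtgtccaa
Atp5f1c: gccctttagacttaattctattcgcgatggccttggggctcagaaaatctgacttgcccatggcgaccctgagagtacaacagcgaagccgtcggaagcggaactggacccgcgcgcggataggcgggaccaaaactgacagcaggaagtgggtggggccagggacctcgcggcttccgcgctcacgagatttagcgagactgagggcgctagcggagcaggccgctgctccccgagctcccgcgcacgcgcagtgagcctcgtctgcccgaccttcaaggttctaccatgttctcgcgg
Atp5me: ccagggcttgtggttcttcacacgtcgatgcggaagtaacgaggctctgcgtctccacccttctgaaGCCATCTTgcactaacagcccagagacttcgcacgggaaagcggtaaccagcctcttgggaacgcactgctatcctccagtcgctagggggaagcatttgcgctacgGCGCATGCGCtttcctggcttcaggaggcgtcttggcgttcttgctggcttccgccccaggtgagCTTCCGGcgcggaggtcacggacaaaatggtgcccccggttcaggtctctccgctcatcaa
Cox6a2: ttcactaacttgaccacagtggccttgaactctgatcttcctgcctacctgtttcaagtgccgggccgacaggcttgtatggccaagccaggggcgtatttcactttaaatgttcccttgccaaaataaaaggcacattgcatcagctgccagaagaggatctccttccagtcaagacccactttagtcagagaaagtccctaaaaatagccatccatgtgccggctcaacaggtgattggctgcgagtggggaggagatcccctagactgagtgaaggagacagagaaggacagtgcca

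Atp5me held a pair of overlapping matches to the NRF1 letters, 1 to those of YY1 and 1 to those of the ETS factors. Ndufa4l2 held 1 match to YY1 and Ndufs8 held 1 to ETS, while the windows of Atp5f1c and Cox6a2 held none of these letters. Over all 68 windows, 34 held at least 1 of the motifs (50%), against 14.7% of the 33469 promoters of the table. The ETS letters were in 21 windows (30.9%, against 8.75% of all promoters), the YY1 letters in 14 (20.6% against 3.17%), the NRF1 letters in 8 (11.8% against 2.47%) and the last motif in 4 (5.88% against 1.52%). A match describes the letters of the window and is not a binding site. Of genes called higher in smoke 10 of 20 windows held a match, of genes called lower 5 of 13, and of genes not called 19 of 35.

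The first comparison asked how chronic smoke exposure changed these genes. In smoke against naive lung, 21 of 78 genes rose and 14 fell relative to the array's 75th percentile (limma, Benjamini-Hochberg adjusted p under 0.05 over all features tested). That is 44.9% called, against 47.5% of all features, of which 12.1% rose and 35.4% fell. The median difference was -0.05 on the log2 scale, against -0.62 over all features, and 61 of the 78 genes lay above that median. The largest rises were those of Ndufa4l2, Ndufs4 and Atp5f1c. The largest falls were those of Ndufa10, Uqcr11 and Atp5me, and spike-in scaling turned all 14 genes that fell, 12 to a call as higher. The 2 groups did not overlap for 60 of the 78 genes, against 79.4% of all features. The counts include Ndufs4, which was above background in the smoke group alone; among the 76 genes above background on all 8 arrays 19 rose and 15 fell, with 57.3% of all such features called.

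The number called rested on single arrays, and so did the share of all features called. Both fell when either smoke array or either naive array was left out, so the fall was not particular to these genes. Ndufs4 is counted among the 21 risers, but it passed the filter through the smoke arrays alone, so its call adds no support. All 21 kept their call under quantile normalization, cyclic loess and spike-in scaling alike. With normexp background correction 19 did, Ndufa4l2 lost its call at 0.06 and Ndufs4 turned to a call as lower, at -0.82. Of the 14 that fell, 4 kept the call with quantile normalization, 1 with cyclic loess, 9 with the percentile taken over probes and all 14 with normexp.

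**Figure D1:**
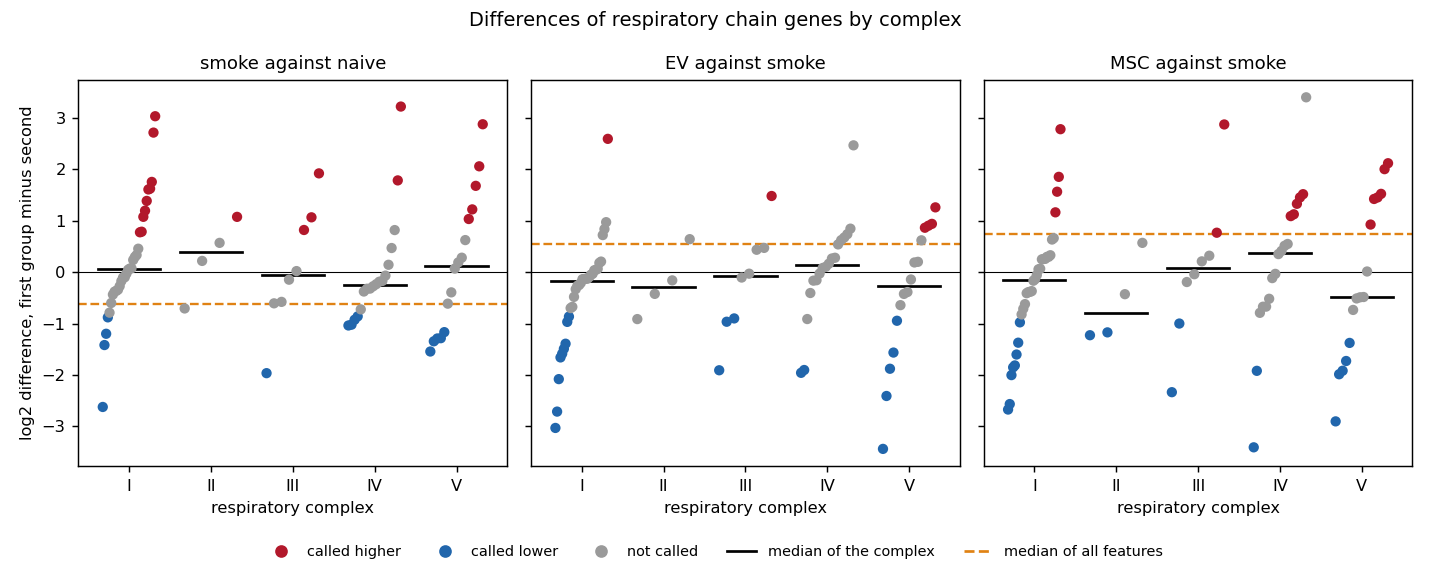
Log2 difference of each of the 78 respiratory chain genes, by complex, in the comparisons of smoke with naive, EV with smoke and MSC with smoke. Points are genes, coloured by the limma call, black bars are medians of a complex and the dashed line is the median of all features: it lies at -0.62 in the smoke panel, below the median of every complex, and above them in the other panels.

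By complex, the shares called stood between 25% and 62.5%, beside 47.5% of all features (12.1% higher and 35.4% lower). In complex I, 10 of 32 genes rose and 4 fell, with a median difference of 0.06. Ndufs4, which passed the filter through the smoke arrays alone, is among the 10. Complex V had the largest share of called genes, 5 of 16 rising and 5 falling (62.5%, median 0.13). Complex III had 3 of 8 rising and 1 falling (median -0.06), complex II 1 of 4 rising and none falling (median 0.40), and complex IV 2 of 18 rising and 4 falling (median -0.25). Counted without Ndufa4 and Ndufa4l2, complex IV had 1 riser among 16 genes. No test of a difference between complexes was made, and these counts are a description.

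In complex I, the NADH dehydrogenase, the core subunits carry the flavin and iron-sulphur centres. Of 7 core genes 2 rose and none fell (28.6% called, against 47.5% of all features). Ndufs8, a core subunit that binds iron-sulphur clusters, stood at -4.69 and -3.81 in naive, -1.04 and -2.03 in smoke, -4.69 and -4.44 in EV and -4.64 and -3.77 in MSC lung. Both smoke arrays lay above all others. The rise in smoke was 2.72 (SE 0.48, adjusted p = 0.00465). Ndufs1, the largest core subunit, stood at -1.03 and -1.20 in naive, 0.20 and -0.03 in smoke, -0.80 and -0.97 in EV and -2.21 and -1.63 in MSC lung. Its rise in smoke was 1.20 (SE 0.30, adjusted p = 0.0158), and it was the lowest in the MSC arrays. Among core genes that did not pass were Ndufs7 (-0.17), Ndufv1 (0.08) and Ndufv2 (0.05).

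Among the 25 accessory genes of complex I, 8 rose, Ndufs4 among them, and 4 fell (48% called, against 47.5% of all features). Ndufb6 (1.76, SE 0.32, adjusted p = 0.00529), Ndufa11 (1.63), Ndufb11 (1.61) and Ndufa12 (1.39), all subunits around the core, rose with both smoke arrays above all 6 others. Ndufb6 stood at 0.18 and -0.03 in naive, 2.03 and 1.64 in smoke, 0.58 and -0.09 in EV and 0.01 and 0.03 in MSC lung. Ndufa9, Ndufb5 and Ndufb9 rose by 0.78 to 1.08. Ndufs4, a subunit of the peripheral arm whose loss in people causes Leigh syndrome, was well above background on the smoke arrays only, at -4.37 and -4.83, and measured -8.38 to -6.72 on the other 6. Against the lowest signal well above background its level in smoke was at least 3.20-fold higher than in naive, 3.62-fold than in EV and 2.45-fold than in MSC lung. These bounds are computed on the percentile scale. The gene passed the filter through the smoke arrays alone, so its measured difference of 3.04 is given without a test; it was 6.00 with spike-in scaling and turned to -0.82 under normexp.

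Ndufa10, an accessory subunit of the membrane arm, showed the largest fall. Its level was -1.52 and -0.98 in naive, -4.65 and -3.09 in smoke, -1.52 and -1.03 in EV and -0.84 and -1.34 in MSC lung, a difference of -2.62 in smoke (SE 0.52, adjusted p = 0.00685) that turned to 0.34 with spike-in scaling. Before scaling, its signal was 199 and 184 in naive, 129 and 314 in smoke, 265 and 237 in EV and 137 and 102 in MSC lung, so the unscaled smoke values spanned those of the naive and EV arrays. The related gene Ndufa10l1 did not pass at its brighter probe (0.30, SE 0.26, adjusted p = 0.373), while its other probe was called higher at 1.85. Whether the probes of these relatives bind each other's transcripts was not tested. Ndufa5, Ndufb8 and Ndufb3 fell by 1.42, 1.20 and 0.88 and turned to higher with spike-in scaling, the first 2 at 1.54 and 1.76.

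Complex II, succinate dehydrogenase, is also an enzyme of the citric acid cycle. Sdha, the flavoprotein that oxidises succinate, stood at 1.11 and 0.46 in naive, 1.97 and 1.76 in smoke, 1.09 and 0.81 in EV and 0.65 and 0.62 in MSC lung. It rose in smoke by 1.08 (SE 0.32, adjusted p = 0.0265) but lost the call without naive replicate 2, smoke replicate 1 or smoke replicate 2. The iron-sulphur subunit Sdhb (0.22, SE 0.26) and the membrane anchors Sdhc (0.57, SE 0.29) and Sdhd (-0.71, SE 0.28) did not pass. The 2 groups did not overlap for any of the 4 genes, and neither did they for 79.4% of all features. Sdhd stood at 2.85 and 2.61 in naive and 2.02 and 2.02 in smoke, the opposite sign to the other 3 on this scale, and 2.26 with spike-in scaling.

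In complex III, 3 of 8 genes rose and 1 fell (50% called, against 47.5% of all features). Uqcrfs1, the Rieske iron-sulphur protein, stood at -1.10 and -0.92 in naive, 1.24 and 0.59 in smoke, -0.86 and -1.13 in EV and -1.86 and -0.98 in MSC lung. Its difference in smoke was 1.92 (SE 0.39, adjusted p = 0.00698). The core proteins Uqcrc2 (1.07, adjusted p = 0.0191) and Uqcrc1 (0.82, adjusted p = 0.0455) rose as well. Uqcr11, a small accessory subunit, stood at 4.94 and 5.67 in naive, 3.26 and 3.42 in smoke, 4.58 and 5.06 in EV and 6.18 and 6.24 in MSC lung. The groups were ordered smoke, EV, naive and MSC, with EV replicate 2 above naive replicate 1. Its fall of 1.97 in smoke (SE 0.34, adjusted p = 0.00428) turned to a rise of 1.00 with spike-in scaling and was not called with cyclic loess (-0.99, adjusted p = 0.0518). The remaining genes, Uqcr10, Uqcrb, Uqcrh and Uqcrq, lay between -0.61 and 0.02 and did not pass.

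In complex IV, cytochrome c oxidase, Ndufa4l2 and Cox7b rose. Ndufa4l2, a target of hypoxia-inducible factor that is known to lower complex I activity, stood at -6.12 and -6.88 in naive, -3.19 and -3.35 in smoke, -5.27 and -5.20 in EV and -7.11 and -6.25 in MSC lung. The smoke arrays were highest, the EV arrays lay between, and the naive and MSC arrays overlapped. The difference in smoke was 3.22 (SE 0.39, adjusted p = 0.00219), but its call was lost with normexp at 0.06, and its dimmer probe overlapped between the groups at -6.20 and -3.14 in naive and -3.58 and -4.05 in smoke. Ndufa4, the usual form, did not pass (-0.17, SE 0.27), with 2.58 and 2.50 in naive and 2.44 and 2.31 in smoke. Cox7b, a small subunit, stood at -0.58 and 0.12 in naive and 1.67 and 1.45 in smoke (1.79, SE 0.46, adjusted p = 0.0161). That call was lost without naive replicate 1 or smoke replicate 1.

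Cox4i1, Cox6b2, Cox7a2l and Cox7c fell on the percentile scale. Cox4i1, the usual form of the COX4 subunit, stood at 5.24 and 5.51 in naive, 4.38 and 4.52 in smoke, 5.13 and 5.13 in EV and 5.94 and 5.62 in MSC lung. Its fall of 0.93 (SE 0.27, adjusted p = 0.0276) turned to 0.09 with cyclic loess and to 2.04 with spike-in scaling. Cox6b2, known as a testis isoform, fell by 1.04 (SE 0.28, adjusted p = 0.0187) and turned to 1.93 with spike-in scaling. The oxygen-responsive Cox4i2 (0.47, SE 0.38) and the usual forms Cox6a1 (-0.19), Cox6b1 (-0.23), Cox7a2 (-0.07) and Cox8a (0.14) did not pass.

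Complex V, the ATP synthase, joins a catalytic head to a membrane rotor. In the head, Atp5f1c, the central stalk subunit gamma, stood at -2.86 and -2.20 in naive, 0.89 and -0.19 in smoke, -3.11 and -3.08 in EV and -2.54 and -2.58 in MSC lung. The smoke arrays lay above all 6 others, and the difference was 2.88 (SE 0.41, adjusted p = 0.00268). The catalytic subunit beta, Atp5f1b, rose by 2.06 (SE 0.48, adjusted p = 0.0118), from -2.49 and -1.54 to 0.66 and -0.58. Subunit alpha, Atp5f1a, did not pass (0.62, SE 0.30), and subunit epsilon, Atp5f1e, fell by 1.29 (SE 0.27, adjusted p = 0.00762), turning to 1.67 with spike-in scaling. In the stator and membrane part, Atp5pb and Atp5mf rose by 1.04 and 1.22. Atp5me, a small membrane subunit, stood at 5.63 and 5.79 in naive, 4.03 and 4.30 in smoke, 5.37 and 5.49 in EV and 6.49 and 6.09 in MSC lung. It fell by 1.54 (SE 0.28, adjusted p = 0.00521), which turned to 1.42 with spike-in scaling and was not called with cyclic loess (-0.50).

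The rotor subunit c is made from 3 genes whose mature proteins are the same, and Atp5mc3 differed in sign from the other 2 on the percentile scale. Atp5mc1 stood at 4.26 and 4.32 in naive, 2.96 and 3.05 in smoke, 3.94 and 3.95 in EV and 5.13 and 4.90 in MSC lung. Atp5mc2 stood at 5.58 and 5.92, 4.32 and 4.50, 5.11 and 5.51, and 6.10 and 5.76 in the same groups. Both were lowest on the smoke arrays. Atp5mc3 was highest there, at 2.39 and 1.68, against 0.43 and 0.27 in naive, 0.27 and 0.04 in EV and 0.06 and 0.03 in MSC lung. In smoke Atp5mc1 fell by 1.28 (SE 0.26, adjusted p = 0.00708) and Atp5mc2 by 1.34 (SE 0.30, adjusted p = 0.0102), turning to 1.68 and 1.62 with spike-in scaling and not called with cyclic loess, while Atp5mc3 rose by 1.68 (SE 0.32, adjusted p = 0.00573). With spike-in scaling all 3 were higher in smoke, Atp5mc3 at 4.64. The mean of the 4 Atp5mc2 probes was not called (-0.71, adjusted p = 0.0523).

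**Figure D2:**
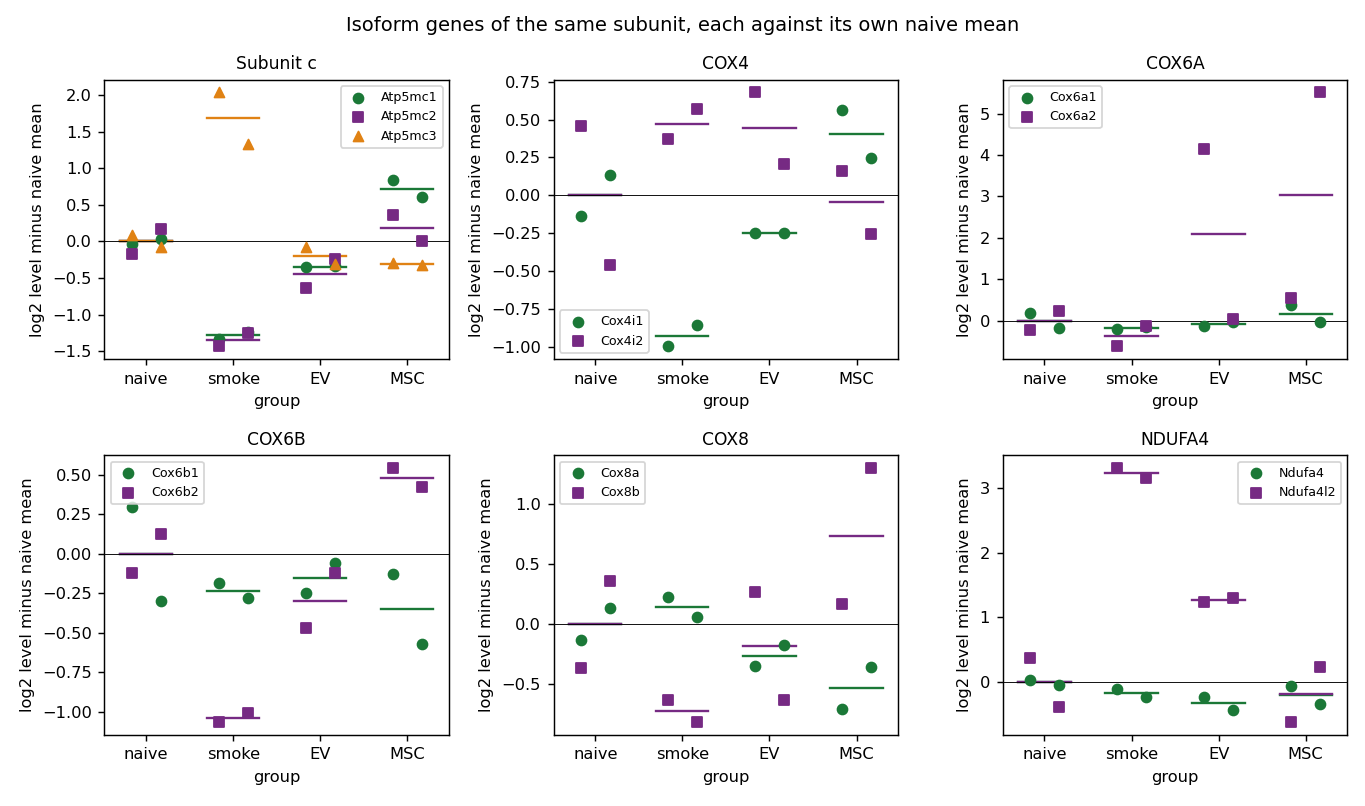
Log2 level minus the gene's own naive mean for genes that encode forms of the same subunit, by group. Points are arrays, short lines are group means of 2 arrays; Atp5mc3 and Ndufa4l2 stand highest in smoke, and Cox6a2 is high on EV replicate 1 and MSC replicate 2 only.

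**Figure D3:**
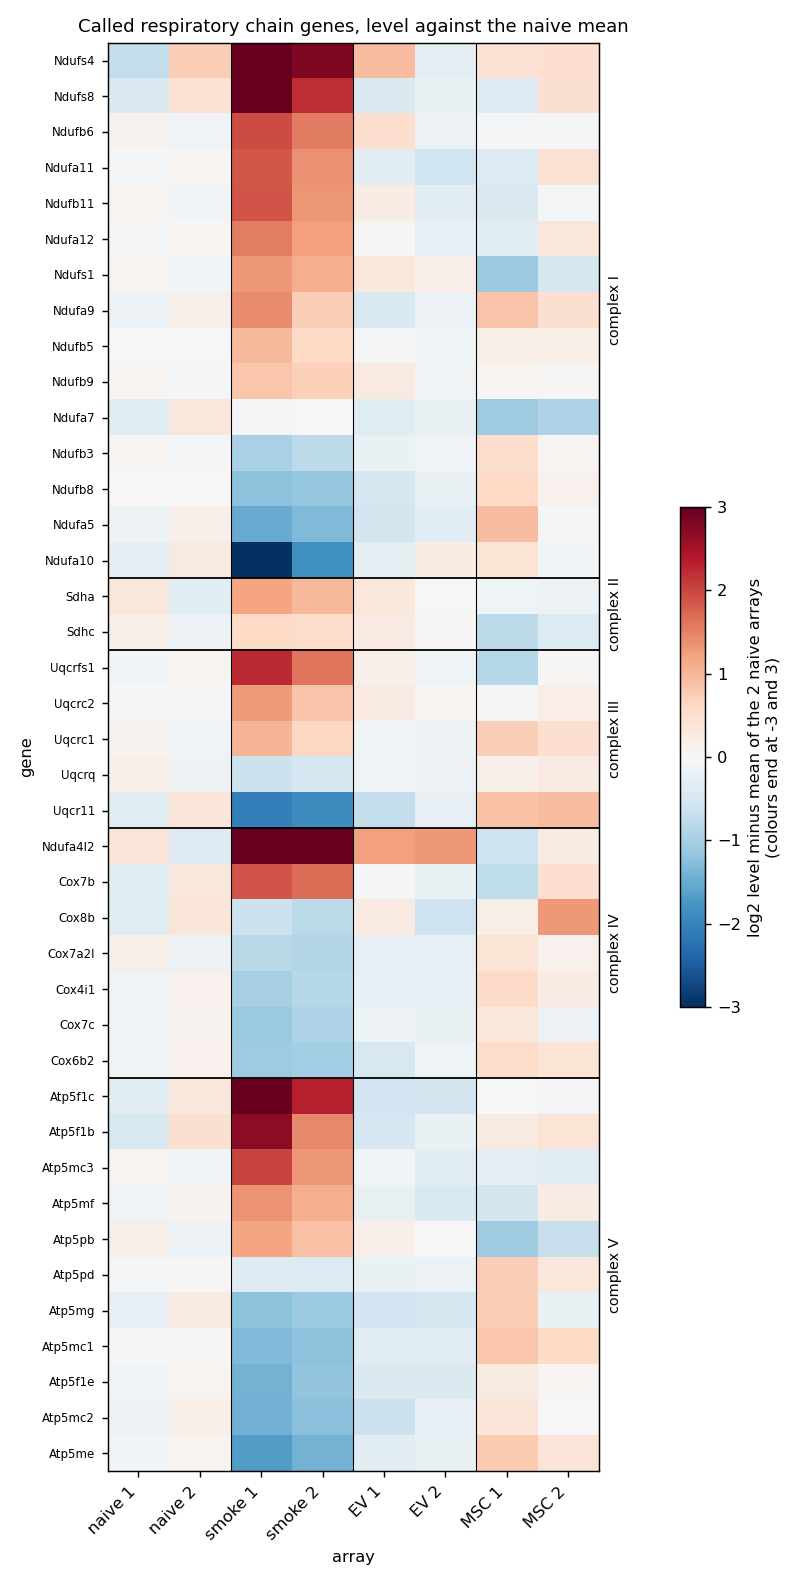
Log2 level of the 40 respiratory chain genes called in at least 1 comparison with smoke (rows, grouped by complex) on the 8 arrays (columns), minus the gene's mean on the naive arrays; red is higher and blue lower, with colours ending at -3 and 3. In the smoke columns the mean gap to naive runs from -2.62 for Ndufa10 to 3.22 for Ndufa4l2, and each complex holds red rows.

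The difference in smoke followed how bright a probe was. Brightness was read from the MSC arrays, which enter neither side of this comparison. Across the 78 genes the correlation of the smoke difference with it was -0.73 (Spearman -0.71), and across all 25097 features -0.24 (Spearman -0.22). These points share the same 4 arrays and are a description. At a brightness of 0 to 2, 8 of 21 genes rose and none fell, with a median of 0.33 against -0.79 for all features in that range. Of all features there, 5.04% rose and 42% fell. From 2 to 4, none of 23 rose and 1 fell (median -0.17 against -0.92), beside 2.47% and 49% of all features. The other ranges held under 20 genes each. Below -2, 4 of 6 rose and none fell, beside 15.7% and 29.9% of all features. From -2 to 0, 9 of 13 rose and 2 fell, beside 11% and 38.4%. From 4 to 6, none of 12 rose and 8 fell, beside 0.674% and 59.3%. Above 6, 3 of 3 fell, beside 81.7%. Over all features the share that fell went from 29.9% below -2 to 81.7% above 6.

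**Figure D4:**
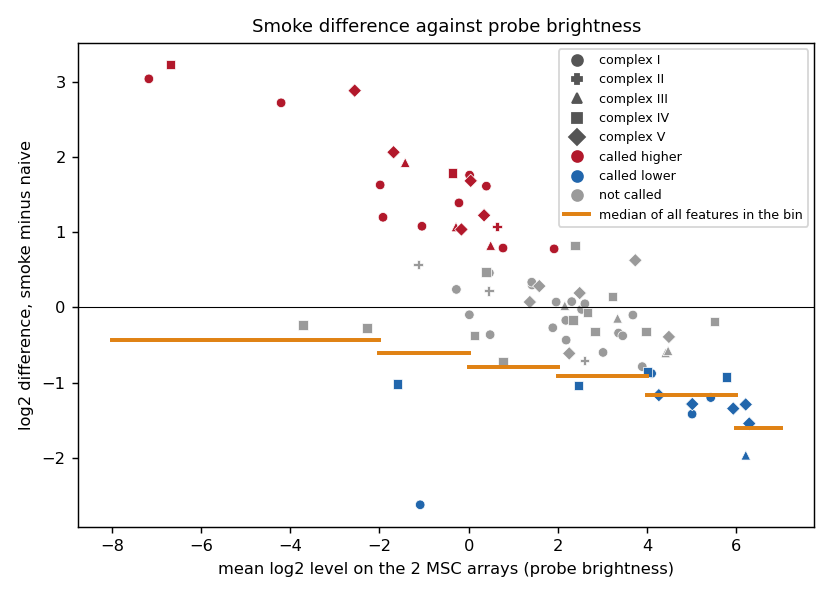
Log2 difference of smoke minus naive for each respiratory chain gene against its mean level on the 2 MSC arrays, a measure of probe brightness. Marker shape gives the complex, colour the limma call, and orange bars the median of all features in each brightness range; dim genes lie high, bright genes low, and the bars fall from -0.44 to -1.60.

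The unscaled signals show the 2 sides of this pattern. For Atp5f1c they were 78.1 and 78.9 in naive and 5978 and 2348 in smoke lung. For Atp5me they were 28101 and 20102 in naive and 53016 and 52749 in smoke lung, a smaller rise than the 6.49-fold rise of the 75th percentile. The brightest of the 78 genes on the naive arrays was Atp5f1e, at 35182 and 25504, and it reached 80549 and 78364 in smoke lung. On the smoke arrays the brightest was Cox6a1, at 113498 and 96958, after 26097 and 12966 in naive lung. Which scale is closer to RNA per cell was not tested.

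**Figure D5:**
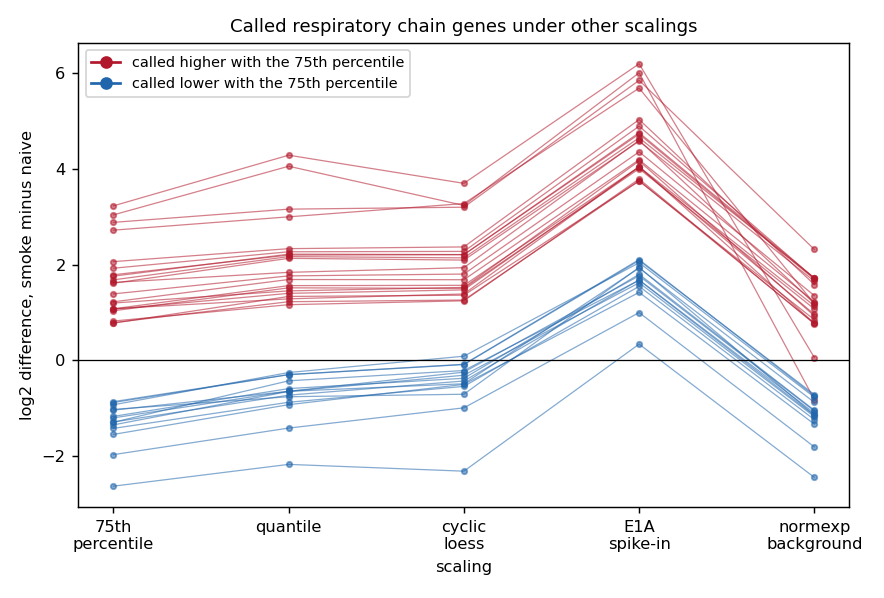
Log2 difference of smoke minus naive for the 35 genes called with the 75th percentile scale, under that scale and 4 other treatments of the signal. Each line is a gene, red where it was called higher and blue where called lower with the 75th percentile; spike-in scaling lifts every line above 0, and normexp brings 2 of the dim risers to 0.06 and -0.82.

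The second comparison asked how vesicle treatment changed smoke-exposed lung. In EV against smoke lung 6 of 78 genes were higher and 19 lower (32.1% called, against 39.8% of all features, 29.9% higher and 9.96% lower). The median was -0.13 against 0.55 over all features, and 16 of 78 genes lay above that median. The groups did not overlap for 67 genes, against 82.8% of all features. The lower genes here, and those of complex I below, include Ndufs4, which passed the filter through the smoke arrays alone. Among the 76 genes above background on all 8 arrays 10 were higher and 18 lower, with 49% of all such features called. This comparison shares the smoke arrays with the comparison above, so the values of both are given side by side with no test of their likeness. Atp5f1c, which stood at 2.88 in smoke against naive, was -3.44 in EV against smoke (SE 0.41, adjusted p = 0.00386). Ndufs8 was 2.72 and then -3.03 (SE 0.48, adjusted p = 0.00504). On the other side, Ndufa10 was 2.60 (SE 0.52, adjusted p = 0.00934), which fell to 0.11 with spike-in scaling. Uqcr11 was 1.48 (adjusted p = 0.0137) and Atp5me 1.26 (adjusted p = 0.0131), which turned to -1.001 and -1.22 with spike-in scaling.

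By complex, EV against smoke gave 1 higher and 9 lower genes in complex I, none called in complex II, 1 higher and 3 lower in complex III, none higher and 2 lower in complex IV and 4 higher and 5 lower in complex V. As shares called these were 31.2%, 0%, 50%, 11.1% and 56.2%, beside 39.8% of all features. Of the 19 lower genes, Ndufs4 passed the filter through the smoke arrays alone, so its call adds no support. The 19 kept their call under quantile normalization, cyclic loess and spike-in scaling, and 17 of them under normexp. None of the 6 higher genes kept it under all of those scalings: 1 did with quantile normalization and 1 with cyclic loess. The count of called genes and the share of all features called both fell when either smoke array or either EV array was left out. Ndufa4l2 was lower in EV than in smoke lung, at -1.96 (SE 0.39, adjusted p = 0.00884), and this call was lost without smoke replicate 1 or EV replicate 2 and with normexp (-0.26).

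The third comparison asked the same of stem cell treatment. In MSC against smoke lung 17 of 78 genes were higher and 19 lower (46.2% called, against 59.7% of all features, 43.3% higher and 16.4% lower). The median was -0.09 against 0.74, with 18 of 78 genes above the median of all features. The groups did not overlap for 65 genes, against 80.5% of all features. Ndufs4, which passed the filter through the smoke arrays alone, is again among the lower genes and those of complex I below. Among the 76 genes above background on all 8 arrays 19 were higher and 19 lower, with 66% of all such features called. Uqcr11 was 2.88 higher (SE 0.34, adjusted p = 0.000452), Ndufa10 2.78 higher and Atp5me 2.12 higher, turning to -1.15, -1.24 and -1.90 with spike-in scaling. Ndufa4l2 was lower, at -3.41 (SE 0.39, adjusted p = 0.000405). On neither MSC array was its probe well above background, so smoke was at least 6.16-fold higher on this scale, and under normexp the difference turned to 0.50. Atp5f1c was lower, at -2.90 (SE 0.41, adjusted p = 0.000894), as was Ndufs8, at -2.67 (SE 0.48, adjusted p = 0.00249).

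Complex II had 2 of 4 genes lower in MSC against smoke lung. Sdha stood at -1.23 (SE 0.32, adjusted p = 0.0118) and Sdhc at -1.17 (SE 0.29, adjusted p = 0.00975), and both calls were lost without smoke replicate 1. Complex I had 4 genes higher and 8 lower, complex III 2 and 2, complex IV 5 and 2, and complex V 6 and 5. The shares called in complexes I to V were 37.5%, 50%, 50%, 38.9% and 68.8%, beside 59.7% of all features. Of the subunit c genes, Atp5mc1 was 2.01 higher (adjusted p = 0.000638) and Atp5mc2 1.52 higher (adjusted p = 0.00378), turning to -2.02 and -2.50 with spike-in scaling, and Atp5mc3 was lower, at -1.99 (adjusted p = 0.0015). The count of called genes and the share of all features called were both lowest without smoke replicate 1. Of the 19 lower genes, Ndufs4 passed the filter through the smoke arrays alone, so its call adds no support. All 19 kept their call under quantile normalization, cyclic loess and spike-in scaling, and 16 under normexp. Of the 17 higher genes 6 did with quantile normalization and 5 with cyclic loess, and with spike-in scaling all 17 were called lower.

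Between the treatments none of the 78 genes passed in EV against MSC lung (limma), against 7.14% of all features (1.8% higher and 5.34% lower). An unadjusted p under 0.05 was found for 15 of the 78, beside 7776 of all 25097 features. The groups did not overlap for 38 genes, against 61.3% of all features. Nearest to the threshold were Uqcr11 (-1.39, SE 0.34, adjusted p = 0.051), Atp5mc1 (-1.06, SE 0.26, adjusted p = 0.0511) and Ndufa4l2 (1.45, SE 0.39, adjusted p = 0.0603). The count depended on the setting, as did the share of all features called. It was 10 with normexp (50.4% of all features) and 38 with spike-in scaling (40.8%). With the filter that asks for all 8 arrays it was 4 (17.8%). It was 1 with cyclic loess (5.2%) and 4 with a trended, robust prior (10.3%). The count also changed when either naive array was left out. Against naive lung, none of the 78 genes passed in EV lung, as with 0% of all features. Only 1, Ndufa4l2 (1.27), had an unadjusted p under 0.05, beside 1069 of all 25097 features. The groups did not overlap for 38 genes, against 37.6% of all features. In MSC against naive lung none passed, against 0.00398% of all features. An unadjusted p under 0.05 was found for 7 of the 78, beside 5501 of all 25097 features. Among the 7 were Ndufa7 (-1.004, SE 0.31) and Atp5pb (-0.88, SE 0.30). The groups did not overlap for 30 genes, against 48.9% of all features. With spike-in scaling 3 genes were lower in MSC than in naive lung, beside 6.51% of all features called.

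Cox6a2, the heart and skeletal muscle form of COX6A, stood apart from the groups. It stood at -3.14 and -2.66 in naive, -3.52 and -3.03 in smoke, 1.25 and -2.87 in EV and -2.36 and 2.61 in MSC lung, so that it was high on 1 array of each treated group. Its other probe gave 1.08 and 2.30 on those 2 arrays and -3.73 to -2.49 on the rest. It was not called in EV against smoke (2.47, SE 1.69, adjusted p = 0.27) or MSC against smoke (3.40, SE 1.69, adjusted p = 0.117), and without those arrays the differences were 0.41 and 0.92. Cox8b, the muscle form of COX8, was also highest on MSC replicate 2, at 1.33 against -0.78 to 0.39 elsewhere. Its call as higher in MSC against smoke lung (1.46, SE 0.49, adjusted p = 0.0333) was lost without MSC replicate 2 (0.89), without either smoke array, with quantile normalization and with cyclic loess, and turned to -2.57 with spike-in scaling.

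Cardiac muscle genes were high on the same 2 arrays. Of 12 cardiac markers 9 were measured, and their summed level was 5.10 on EV replicate 1 and 6.28 on MSC replicate 2, against 1.14 and 1.39 in naive, 0.50 and 0.65 in smoke, 1.28 on EV replicate 2 and 1.83 on MSC replicate 1. The atrial light chain gene Myl7 stood at 3.102 and 4.53 on those arrays and at -5.86 to -1.53 on the other 6, and the heart myosin gene Myh6 at 3.18 and 4.16 against -8.03 to -2.22. Skeletal muscle markers (4 of 9 measured) did not single out those arrays, with a summed level of -0.11 on EV replicate 1, 1.00 and 1.22 on the MSC arrays and -2.72 to -0.55 elsewhere. The part of heart muscle in the values of other genes of these arrays was not tested. Without both arrays, an alternative chosen after seeing the data, fewer of the genes were called in EV against smoke lung, and fewer of all features.

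Genes that feed or build the chain were read from fixed lists in the smoke comparison. Over all features 47.5% were called, 12.1% higher and 35.4% lower, and the lists had 44.4% (outside the name rule), 52.9% (citric acid cycle), 35.9% (assembly), 25% (regulators) and 50% (glycolysis). Of 9 carriers and subunits outside the name rule, 2 rose and 2 fell (median -0.21 against -0.62 over all features). Etfa, which carries electrons from fatty acid oxidation, rose by 2.57 (SE 0.39, adjusted p = 0.00298), and its partner Etfb fell by 1.77 (SE 0.34, adjusted p = 0.00591), turning to 1.19 with spike-in scaling. Cyct, the testis cytochrome c, stood at -1.88 and -1.63 in naive, -8.99 and -6.90 in smoke, -1.79 and -0.46 in EV and 1.06 and 1.00 in MSC lung. It was lower in smoke under each scaling, at -6.19 (SE 0.69, adjusted p = 0.00216) on the percentile scale and at -3.23 with spike-in scaling. On smoke replicate 1 it lay below a Cox6c-ps1 probe (-8.78 there) that was well above background on no array. The size of the Cyct fall is therefore uncertain. The somatic cytochrome c, Cycs, did not pass (0.47, SE 0.30). The spermatid genes Prm1 and Prm2, 2 measured of 8 on their list, were also lowest in smoke on the percentile scale (Prm1 turned to 1.69 with spike-in scaling, Prm2 was -0.80), with a summed level of -4.16 and -3.37 there, 1.45 and 0.65 in MSC and -1.16 to -0.68 in the other lungs.

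Of 17 citric acid cycle genes 7 rose and 2 fell (median 0.72). Idh3b rose by 2.80, Mdh2 by 2.46 and Dld by 1.73, all enzymes or parts of dehydrogenases that yield NADH. Citrate synthase, Cs, the entry enzyme of the cycle, stood at 1.79 and 1.94 in naive, 0.00 and 0.19 in smoke, 1.51 and 1.96 in EV and 3.27 and 2.79 in MSC lung. It fell in smoke by 1.77 (SE 0.31, adjusted p = 0.0044), turning to 1.19 with spike-in scaling. Of 39 measured of 48 assembly factors 6 rose and 8 fell (median -0.18), among them Coa5 of complex IV assembly, at -3.61 (SE 0.48, adjusted p = 0.0024) and at -0.65 with spike-in scaling. Of 16 measured of 20 regulators of mitochondrial biogenesis 3 rose and 1 fell (median 0.36). The mitochondrial DNA polymerase Polg rose by 2.43 (SE 0.28, adjusted p = 0.00216) and the GABP subunit Gabpb1 by 1.20, and Nrf1, the factor whose motif was searched above, fell by 1.15 (SE 0.27, adjusted p = 0.0123), turning to 1.81 with spike-in scaling. Tfam, which packages and transcribes mitochondrial DNA, did not pass in smoke (0.60, SE 0.32) and was lower in MSC than in smoke lung, at -1.55 (SE 0.32, adjusted p = 0.00472). Of 16 glycolysis genes 4 rose and 4 fell (median -0.27). With spike-in scaling the counts were 8 higher and 1 lower, 17 and 0, 38 and 0, 16 and 0, and 15 and 0 in the order in which these 5 lists are described. With normexp none of the assembly factors rose and 20 fell, and of the regulators 1 rose and 6 fell. Of all features 83.2% were called with spike-in scaling and 73.8% with normexp.

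Several genes had more than 1 probe. Of 19 genes with several probes measured on all arrays, 2 had every probe called alike in smoke against naive, 7 had some probes called, 10 had none, and no gene had probes called in opposite directions. For Ndufb4 the brightest probe stood at -0.79 and was not called, while another was called at 0.83. For Ndufv3 the values were -0.10 and 0.92, the latter called, and for Uqcr11 both probes were lower, at -1.97 and -1.01. The gene table lists copies of Atp5mc1, Atp5mc2, Atp5mg, Uqcr11, Ndufb3, Ndufb4 and Cox7c that have no probe of their own, and whether their transcripts bind these probes was not tested.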

How the data were processed

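Lung RNA of 8 samples was read on 8 one-colour arrays. Per the file headers, Agilent Feature Extraction 10.7.3.1 made the deposited intensity values: the processed signal of a spot is background-subtracted and not scaled between arrays. Intensities have no read depth, so the number of arrays limits precision. From them, log2 of each spot was taken, and spots flagged as outliers and control spots were left out. Spots of a probe were then averaged and the array's 75th percentile over spots was subtracted. Probes were named through RefSeq accessions (21215 of 45598 probes have a symbol), and a gene was represented by its brightest probe on average. limma 3.58.1 in R 4.3.3 fitted 4 group means to 25097 features (lmFit, eBayes), with Benjamini-Hochberg adjustment over all of them at 0.05, in 6 comparisons. With 2 arrays a group, an exact permutation test cannot go below 0.333. "At least" folds set the bright group's mean against the lowest signal well above background.

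Genes named with values were the 3 highest and 3 lowest called differences in each comparison with smoke whose groups do not overlap, the isoform genes, the Sdh genes and up to 3 genes of each list; others, such as further called subunits and genes near a threshold, were chosen after their values were seen. The genes and lists were chosen with earlier results of these data known. Alternatives were normexp background correction (offset 50), quantile, cyclic loess and E1A spike-in scaling (7 of 10 probes), other filters, probe means, a replicate block and leaving out arrays. The fit was tested on simulated data. Figures were drawn with matplotlib 3.10.9. The values of 1 gene are not reported here.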

Additional observations from a re-analysis of the deposited data

How the results depend on the processing

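In smoke against naive lung the 35 calls became 75 with spike-in scaling (83.2% of all features called) and 9 to 37 when single arrays were left out. In EV against smoke the 25 calls became 75 with spike-in scaling (74% of all features), 15 without EV replicate 1 and MSC replicate 2, and 2 to 30 with single arrays left out. In MSC against smoke the 36 calls became 77 (88.7% of all features), and 21 to 37. EV against MSC, with none called, gave 10 with normexp (50.4% of all features) and 38 with spike-in scaling (40.8%). With probes above background on all 8 arrays it gave 4 (17.8%). It gave 1 with cyclic loess (5.2%) and 4 with a trended, robust prior (10.3%), and changed with a naive array left out. MSC against naive gave 3 with spike-in scaling (6.51% of all features), and EV against naive gave none in any setting. Spike-in scaling turned, in smoke against naive, Ndufa10 to 0.34, Uqcr11 to 1.00, Atp5me to 1.42, Cox4i1 to 2.04, Cox6a1 to 2.78, Cox6b1 to 2.73, Cox6b2 to 1.93, Cox7a2 to 2.90, Cox8b to 2.24, Ndufa4 to 2.79, Atp5mc1 to 1.68, Atp5mc2 to 1.62 and Sdhd to 2.26. In EV against smoke it turned Uqcr11 to -1.001, Atp5me to -1.22, Cox4i1 to -1.81, Cox6a1 to -2.38, Cox6b1 to -2.40, Cox6b2 to -1.74, Cox8b to -1.94, Atp5mc1 to -1.54, Atp5mc2 to -1.58 and Sdhd to -1.84. In MSC against smoke it turned Uqcr11 to -1.15, Ndufa10 to -1.24, Atp5me to -1.90, Cox4i1 to -2.69, Cox6a1 to -3.67, Cox6b2 to -2.50, Cox8b to -2.57, Atp5mc1 to -2.02, Atp5mc2 to -2.50 and Sdhd to -3.45. That scaling moved the median of all features from -0.62 to 2.34 in smoke against naive. Normexp turned Ndufs4 to a call as lower, at -0.82, in smoke against naive and to 0.51, not called, where EV and smoke were compared. For MSC and smoke it turned Ndufa4l2 to 0.50, Cox6b1 to 1.37 and Ndufs4 to a call as higher, at 1.41. Cyclic loess turned Cox4i1 to 0.088 and Cox6a1 to 0.85 in smoke against naive, and Cox6a1 to -0.78 and -0.94 in EV and MSC against smoke; quantile normalization turned Cox6a1 to -0.90 in the last. With single arrays left out, the share of all features called changed as well. The cause of these changes was not tested. Same-numbered arrays share only a number: their deviations from the group means correlated at -0.149 to 0.139. With the replicate block the 3 comparisons with smoke gave 31, 19 and 35 calls and the others 0. Of all features, 46.1%, 37.6% and 59% were then called in the comparisons with smoke. Dim probes such as Ndufs4 and Ndufa4l2 lie near background, which limits their folds.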
